A study of Mus musculus with 10 samples.

Results

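The genes described here encode the collagen chains other than type IV and the laminin chains of the mouse. They were taken from the gene table by symbol: protein-coding genes named as a collagen chain, with Col4a1 to Col4a6 left out, or as a laminin alpha, beta or gamma chain. This gave 49 genes of 57010, of which 38 were collagens and 11 were laminins. Of these, 44 reached a mean of 0.5 CPM (counts scaled to a common library size) over the 10 libraries, and 42 had enough counts to be tested among the 15539 tested genes. The member just above this level was Col6a5 at 0.532 CPM. The 5 members under 0.5 CPM were Col6a3 (0.486 CPM), Col14a1 (0.393 CPM), Col13a1 (0.372 CPM), Col28a1 (0.273 CPM) and Col10a1 (0.156 CPM).

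The retinas came from 10 mice that were 6 to 8 weeks old, with 5 mice in each group. Mice of one group had AAV2-GFP injected into the vitreous and mice of the other had AAV206-GFP, so both groups carried an adeno-associated virus (AAV) vector with green fluorescent protein. Whole retinas were taken 14 days later for bulk RNA sequencing. The labels give no strain or sex. Since no uninjected retina was analysed here, every comparison sets one vector against the other.

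Collagens are triple helices of alpha chains. Fibrillar collagens build fibrils, the fibril-associated collagens (FACITs) sit on the fibril surface, and collagen VI forms beaded filaments near basement membranes. In the eye, fibrils of collagens II, IX and V/XI are the main fibrillar scaffold of the vitreous, which adheres to the inner face of the retina. Laminins are trimers of an alpha, a beta and a gamma chain that polymerise into basement membranes, among them the inner limiting membrane between vitreous and retina and the membranes around retinal vessels.

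The libraries held 10989843 to 12752604 counts each, and 3 counts, used as the floor, were worth 0.232 to 0.274 CPM. Retinal neuron markers summed to 49129 to 52474 CPM with AAV2-GFP and to 53199 to 57854 CPM with AAV206-GFP. In AAV206-GFP mouse 1 the 42 tested members summed with the 2 untested ones to 784 CPM, while the sums of the remaining AAV206-GFP mice were 556 to 630 CPM and those with AAV2-GFP were 543 to 612 CPM. This mouse was the highest of its group in 27 of the 42 tested members (64.3%), against 23.5% of all tested genes. In AAV2-GFP mouse 1 the 11 microglia and macrophage markers summed to 456 CPM, and in no other mouse did they exceed 53.8 CPM. With AAV206-GFP they summed to 22.2 to 32.4 CPM. The 9 tested ones were below 0 (median log2 fold change -1.44), and 3 were called lower (33.3%, against 11.2% of all tested genes). Lymphocyte markers summed to 18.9 CPM in AAV2-GFP mouse 1 and to at most 1.11 CPM in the others. In AAV206-GFP mouse 4 Y-linked genes summed to 114 CPM, against 226 to 246 CPM in the others. The part of these libraries in the results was not tested. Calls that were gained or lost without one of them are given with their values.

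Of the 42 tested members, 3 passed the edgeR test at an adjusted p under 0.05: Col19a1 and Col9a1 were higher with AAV206-GFP and Col3a1 was lower. That is 7.14% of the members, against 11.2% of all tested genes, so calls were not more frequent among them. Of all tested genes 5.95% were higher and 5.30% were lower. An unadjusted p under 0.05 was reached by 6 members, where 28.0% of all tested genes reached it. The median absolute log2 fold change was 0.15 in the members and 0.16 in all tested genes. The groups were without overlap in 1 member, Col19a1, or 2.38% of the members, against 9.78% of all tested genes in either direction (5.41% higher and 4.36% lower). In whole retina, fewer cells of a type and less RNA per cell cannot be told apart for any of these differences.

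**Figure D1:**
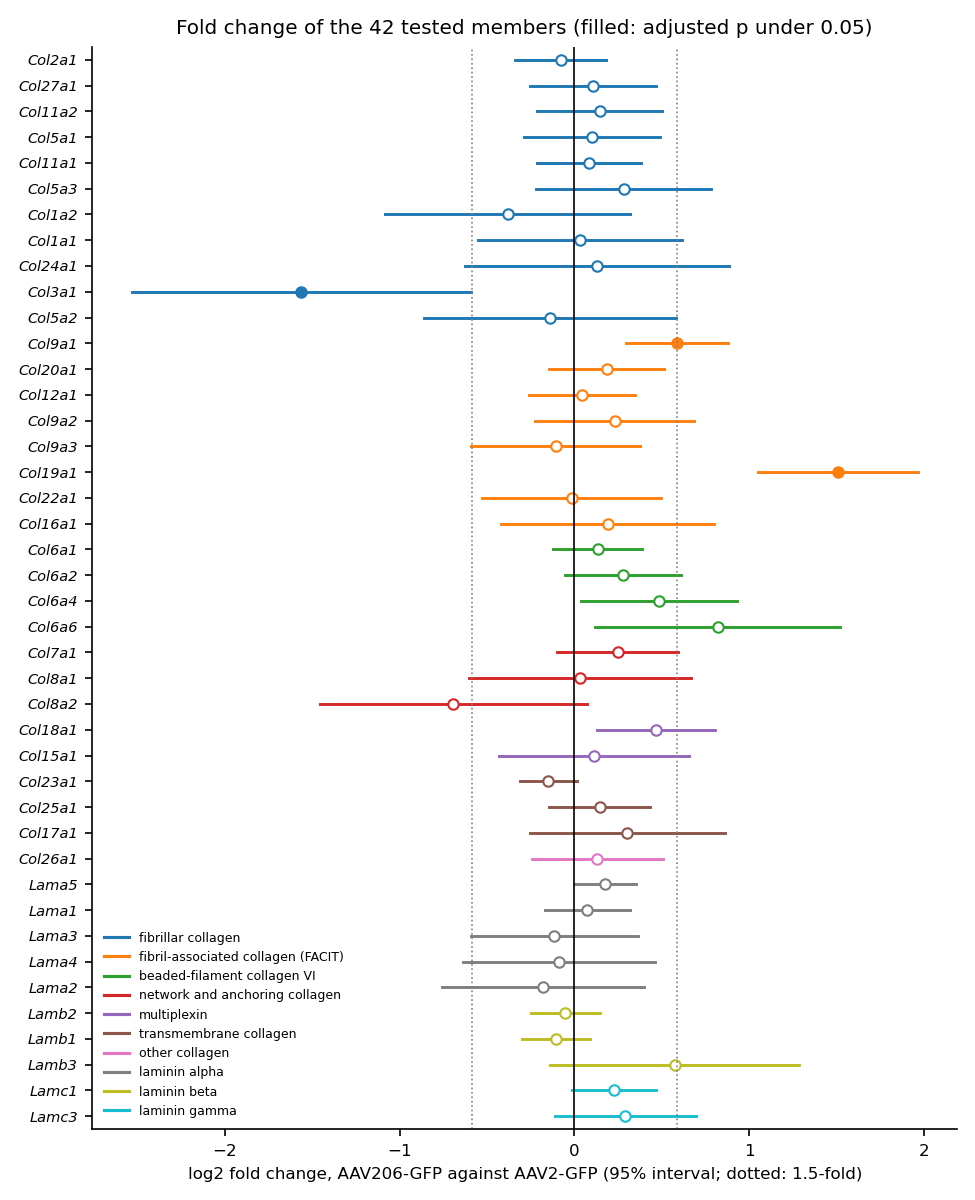
Log2 fold change (AAV206-GFP against AAV2-GFP, x axis) of the 42 tested members by structural class, with 95% intervals; filled points mark an adjusted p under 0.05. Col19a1 and Col9a1 lie to the right of 0 and Col3a1 to the left with intervals that leave 0 out, and most other points lie close to 0.

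Collagen XIX and collagen IX are FACITs, and their genes lie next to each other on chromosome 1. Col19a1 (ENSMUSG00000026141) encodes the only chain of collagen XIX, a minor collagen found near basement membranes and expressed by some neurons. With AAV2-GFP its level was 2.71, 2.07, 2.40, 3.95 and 2.73 CPM in mice 1 to 5, and with AAV206-GFP it was 9.59, 9.30, 6.55, 5.47 and 8.65 CPM. Every AAV206-GFP retina was above every AAV2-GFP retina. The means were 2.77 ± 0.714 and 7.91 ± 1.81 CPM (SD, n = 5 each), a log2 fold change of 1.51 (SE 0.22, 95% interval 1.05 to 1.96, edgeR adjusted p = 0.000404).

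Col9a1 (ENSMUSG00000026147) encodes the alpha 1 chain of collagen IX, which decorates collagen II fibrils in cartilage and vitreous. Its level was 27.8, 24.5, 30.1, 31.7 and 25.7 CPM with AAV2-GFP and 57.9, 41.0, 43.5, 29.4 and 38.0 CPM with AAV206-GFP. AAV206-GFP mouse 4 lay within the AAV2-GFP range and the other 4 AAV206-GFP mice lay above it. The means were 28.0 ± 2.97 and 41.9 ± 10.4 CPM (SD, n = 5 each), a log2 fold change of 0.58 (SE 0.14, 95% interval 0.29 to 0.88, edgeR adjusted p = 0.0136). Without AAV206-GFP mouse 1, which was the highest, the log2 fold change was 0.44 (edgeR adjusted p = 0.0269), and without AAV206-GFP mouse 4 it was 0.69 (edgeR adjusted p = 0.00295). Collagen IX is a trimer of 3 different chains, and the other 2 chain genes did not pass the test. Col9a2 was at 7.27 ± 0.442 and 8.52 ± 2.99 CPM (log2 fold change 0.23, 95% interval -0.23 to 0.69) and Col9a3 at 6.72 ± 1.31 and 6.23 ± 2.32 CPM (log2 fold change -0.11, 95% interval -0.59 to 0.37).

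**Figure D2:**
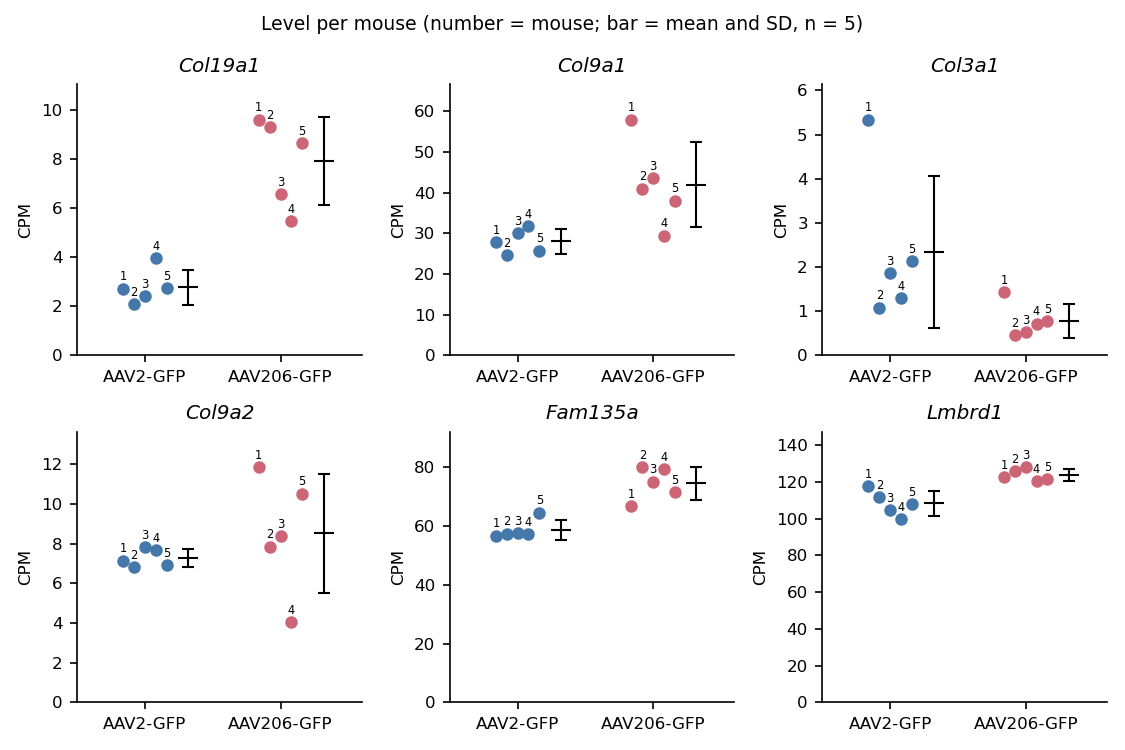
CPM (y axis) of Col19a1, Col9a1 and Col3a1 (top) and of Col9a2 and the neighbouring genes Fam135a and Lmbrd1 (bottom) in each of the 5 AAV2-GFP and 5 AAV206-GFP retinas, with mouse numbers and the mean and SD of each group. The Col19a1 groups do not overlap, 1 AAV206-GFP retina lies within the AAV2-GFP range of Col9a1, and 1 AAV2-GFP retina at 5.33 CPM stands above the others for Col3a1.

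In the GRCm38 annotation Col9a1 lies at chr1:24177610-24252684 on the plus strand and Col19a1 at chr1:24261890-24587472 on the minus strand, so the 2 genes converge with 9205 bases between their ends. The adjoining protein-coding genes were looked at after these values were seen. Fam135a, on the Col9a1 side, was at 58.7 ± 3.30 and 74.6 ± 5.56 CPM (log2 fold change 0.34, SE 0.07, edgeR adjusted p = 0.00402). Lmbrd1, on the Col19a1 side, encodes a lysosomal cobalamin transport protein and was at 108 ± 6.84 and 124 ± 3.21 CPM (log2 fold change 0.19, SE 0.06, edgeR adjusted p = 0.0453). Thus 4 consecutive protein-coding genes passed the test, all higher with AAV206-GFP. Col9a1 and Col19a1 were the calls that led to this stretch. Only their neighbours can therefore be set beside the 5.95% of all tested genes that were called higher. Fam135a passed in each of the 10 fits that left out 1 library. Lmbrd1 passed in 1 of them, without AAV2-GFP mouse 1, and in the other 9 its edgeR adjusted p was 0.0518 to 0.123. The next ones outward, Sdhaf4 (log2 fold change 0.06, edgeR adjusted p = 0.834) and Adgrb3 (log2 fold change 0.20, edgeR adjusted p = 0.146), did not.

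The bases 250 to 51 before the RefSeq start sites of the 3 called members are printed because Col19a1 and Col9a1 were higher and Col3a1 was lower with AAV206-GFP. All 3 matched the RefSeq promoter table (GRCm38.p6), Col9a1 with 2 start sites, and the second start lies inside the gene. Searched on both strands were GGGCGG (the GC box), TATAAA (bound by TBP), CCAAT (bound by NF-Y), ACAAT (SOX-type) and TAATCC (CRX-type), and capitals mark their matches. Of the 32851 promoter windows of this length in the table, 24.6% held the GC box letters, 9.14% the TBP letters, 28.4% the NF-Y letters, 23.7% the SOX-type letters and 5.22% the CRX-type letters.
Col19a1, chr1:24587488-24587687, minus strand: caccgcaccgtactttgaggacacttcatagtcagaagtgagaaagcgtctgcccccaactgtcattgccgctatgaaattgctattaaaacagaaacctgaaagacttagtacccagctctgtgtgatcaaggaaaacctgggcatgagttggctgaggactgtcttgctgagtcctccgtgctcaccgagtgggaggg
Col9a1 first start, chr1:24177360-24177559, plus strand: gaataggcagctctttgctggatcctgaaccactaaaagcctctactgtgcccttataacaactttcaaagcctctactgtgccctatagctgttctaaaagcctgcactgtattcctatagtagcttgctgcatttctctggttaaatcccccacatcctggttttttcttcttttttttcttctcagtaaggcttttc
Col9a1 second start, chr1:24194953-24195152, plus strand: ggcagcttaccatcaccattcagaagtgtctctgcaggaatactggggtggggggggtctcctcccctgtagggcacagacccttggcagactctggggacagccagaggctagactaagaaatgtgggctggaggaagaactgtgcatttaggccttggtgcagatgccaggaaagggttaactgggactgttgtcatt
Col3a1, chr1:45311288-45311487, plus strand: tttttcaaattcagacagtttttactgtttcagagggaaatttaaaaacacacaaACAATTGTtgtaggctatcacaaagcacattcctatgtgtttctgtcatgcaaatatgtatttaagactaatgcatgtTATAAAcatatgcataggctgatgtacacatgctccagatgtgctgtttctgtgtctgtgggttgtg
The Col19a1 window and both Col9a1 windows held none of these letters. Bases nearer to a start than 51 were not searched for any of the 3 members. The presence of TATAAA or the other letters there was therefore not tested, and neither was binding by TBP. The Col3a1 window held TATAAA at 117 to 112 bases before the start, and ACAAT at 195 to 191 bases before it overlapping the same letters on the minus strand at 192 to 188.

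The other fibril-associated collagens gave no call. Collagen XX has a FACIT structure, and Col20a1 was at 18.3, 23.9, 15.9, 19.7 and 15.7 CPM with AAV2-GFP and at 27.2, 22.6, 14.1, 19.9 and 22.2 CPM with AAV206-GFP. The groups overlapped (log2 fold change 0.18, 95% interval -0.14 to 0.51, edgeR adjusted p = 0.464), and in the annotation its exons overlap those of a sense transcript, BX649560.1, at 11.7 CPM. Col12a1, whose product binds collagen I fibrils, had a log2 fold change of 0.04, Col16a1 of 0.19 and Col22a1 of -0.02. Over the 8 tested FACITs, with the called Col19a1 and Col9a1 included, 6 log2 fold changes were above 0. Their median was 0.19, against a median of -0.0095 over all tested genes. Without AAV206-GFP mouse 1 the sign of Col12a1 changed.

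Among the 11 fibrillar collagens Col3a1 was the 1 that passed. Col3a1 (ENSMUSG00000026043, chr1:45311538-45349706) encodes collagen III, the partner of collagen I in vessel walls and other loose connective tissue. Its level was 5.33, 1.08, 1.86, 1.29 and 2.14 CPM with AAV2-GFP and 1.43, 0.456, 0.517, 0.718 and 0.763 CPM with AAV206-GFP. The highest AAV2-GFP value came from mouse 1, and AAV206-GFP mouse 1 was above AAV2-GFP mice 2 and 4. The means were 2.34 ± 1.73 and 0.777 ± 0.388 CPM (SD, n = 5 each), a log2 fold change of -1.56 (SE 0.46, 95% interval -2.53 to -0.59, edgeR adjusted p = 0.0384).

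The Col3a1 call rested on 5 to 59 counts per library and depended on single libraries. Without AAV2-GFP mouse 1 the log2 fold change was -1.02 (edgeR adjusted p = 0.0956). The adjusted p was 0.0533 without AAV2-GFP mouse 3, 0.0597 without AAV2-GFP mouse 5, and 0.0948, 0.0890, 0.0818 and 0.0644 without AAV206-GFP mice 2, 3, 4 and 5 (edgeR). Thus the call held in 3 of the 10 fits that left out 1 library, and limma-voom gave an adjusted p of 0.0654. Fibroblast markers summed to 2.31 to 6.06 CPM with AAV2-GFP, highest in mouse 1, and to 2.06 to 5.20 CPM with AAV206-GFP. Of the 7 markers 1 was tested and it did not pass, and Dpt, a defining one, was at 0 in 9 libraries. Pericyte and smooth muscle markers summed to 127 to 139 and to 113 to 131 CPM, and none of 10 passed. The part of these cells and of the microglia and macrophage markers of AAV2-GFP mouse 1 in the result was not tested.

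The genes of collagen I, with which collagen III shares fibrils, did not pass. Col1a1 was at 3.31 ± 1.07 and 3.37 ± 1.03 CPM (log2 fold change 0.03, 95% interval -0.55 to 0.62) and Col1a2 at 5.05 ± 1.90 and 3.85 ± 1.67 CPM (log2 fold change -0.38, 95% interval -1.08 to 0.32). Col5a2, which lies 24614 bases from Col3a1, had a log2 fold change of -0.14 (edgeR adjusted p = 0.821).

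Col2a1 encodes the chain of collagen II, the main vitreous fibril collagen. Its level was 59.0, 72.4, 68.5, 63.7 and 73.2 CPM with AAV2-GFP and 83.1, 64.3, 44.3, 59.2 and 67.9 CPM with AAV206-GFP. The AAV206-GFP mice spread on both sides of the AAV2-GFP range, and the log2 fold change was -0.08 (95% interval -0.34 to 0.18, edgeR adjusted p = 0.713). Col27a1, which encodes a short fibrillar collagen of cartilage, was at 25.0, 25.8, 19.9, 26.3 and 27.8 CPM with AAV2-GFP and at 43.6, 22.6, 24.2, 21.6 and 22.0 CPM with AAV206-GFP. Mouse 1 stood alone above the other AAV206-GFP mice, and the log2 fold change was 0.11 (95% interval -0.26 to 0.47), and -0.14 without that mouse. The collagen V and XI chains, which nucleate thin fibrils, and Col24a1 had log2 fold changes from -0.14 (Col5a2) to 0.28 (Col5a3), with Col5a1 at 0.10, Col11a1 at 0.08, Col11a2 at 0.14 and Col24a1 at 0.13. Without AAV206-GFP mouse 1, Col5a1 was at -0.08, Col11a2 at -0.01 and Col24a1 at -0.05. The median over the 11 fibrillar genes was 0.08.

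Collagen VI links cells and basement membranes to the surrounding matrix. Col6a1 was at 52.4, 59.0, 50.9, 56.1 and 58.8 CPM with AAV2-GFP and at 81.5, 61.5, 43.0, 58.4 and 59.3 CPM with AAV206-GFP, and Col6a2, whose product assembles with it, was at 6.42, 7.37, 7.97, 10.2 and 8.97 CPM and at 12.5, 8.67, 8.37, 9.60 and 10.5 CPM. Both pairs of groups overlapped, with log2 fold changes of 0.13 (95% interval -0.12 to 0.39) and 0.28 (95% interval -0.05 to 0.61). Col6a3, the chain that completes the classical trimer, was under 0.5 CPM. The chains that can replace it, Col6a4 (5.17 ± 1.05 and 7.22 ± 2.15 CPM, log2 fold change 0.48, 95% interval 0.04 to 0.93) and Col6a6 (1.27 ± 0.330 and 2.25 ± 0.867 CPM, log2 fold change 0.82, 95% interval 0.12 to 1.52) had edgeR adjusted p of 0.143 and 0.118. Without AAV206-GFP mouse 4, Col6a6 passed (log2 fold change 1.02, edgeR adjusted p = 0.0461). All 4 tested collagen VI genes were above 0, against 48.2% of all tested genes, with a median of 0.38, and none passed in all 10 libraries. AAV206-GFP mouse 1 was the highest of its group for Col6a1, Col6a2 and Col6a4. Among the 10 fits that left out 1 library, the lowest log2 fold changes were 0.0031 (Col6a1), 0.18 (Col6a2), 0.30 (Col6a4) and 0.68 (Col6a6).

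Collagens XV and XVIII, the multiplexins, carry heparan or chondroitin sulfate chains and border basement membranes, and the end of collagen XVIII is the source of endostatin. Col18a1 was at 20.5, 14.1, 16.7, 19.2 and 20.8 CPM with AAV2-GFP and at 35.9, 24.5, 22.9, 17.4 and 25.7 CPM with AAV206-GFP. AAV206-GFP mouse 4 lay within the AAV2-GFP range and the other 4 above it, the order also seen for Col9a1. The means were 18.3 ± 2.85 and 25.3 ± 6.74 CPM (log2 fold change 0.47, SE 0.16, 95% interval 0.13 to 0.81), and the edgeR adjusted p of 0.0668 was the smallest among members that did not pass. It passed without AAV206-GFP mouse 4 (log2 fold change 0.58, edgeR adjusted p = 0.0252), with DESeq2 (adjusted p = 0.0332) and without a filter on low counts (edgeR adjusted p = 0.0437). These were 1 of the 10 fits that left out 1 library and 2 of the 12 other alternatives. Over the fits that left out 1 library the log2 fold change was 0.31 to 0.58 (edgeR adjusted p 0.0252 to 0.165). Col15a1 was at 2.53, 4.22, 1.93, 3.39 and 2.56 CPM and at 3.95, 4.01, 2.93, 2.60 and 2.29 CPM, with overlapping groups (log2 fold change 0.11, 95% interval -0.43 to 0.66).

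Of the transmembrane collagens, which span the plasma membrane and can be shed, Col23a1 was at 75.3, 67.3, 76.6, 75.7 and 71.3 CPM with AAV2-GFP and at 79.2, 67.0, 61.6, 60.3 and 62.2 CPM with AAV206-GFP. Mouse 1 was the highest AAV206-GFP retina and the other 4 were below all AAV2-GFP retinas. The log2 fold change was -0.15 (95% interval -0.31 to 0.01, edgeR adjusted p = 0.216), and without AAV206-GFP mouse 1 it was -0.22 (edgeR adjusted p = 0.0434). Col25a1, a collagen of neurons, was at 15.1, 13.5, 14.8, 16.5 and 17.9 CPM and at 15.5, 16.8, 15.9, 23.8 and 14.1 CPM, with AAV206-GFP mouse 4 apart from the rest (log2 fold change 0.14, 95% interval -0.15 to 0.43). Col17a1, a collagen of epithelial hemidesmosomes, had a log2 fold change of 0.30 (95% interval -0.25 to 0.86).

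Col7a1 encodes the chain of anchoring fibrils beneath epithelia. It was at 19.3, 27.0, 15.2, 22.9 and 22.1 CPM with AAV2-GFP and at 34.9, 23.4, 18.7, 21.5 and 27.7 CPM with AAV206-GFP (log2 fold change 0.25, 95% interval -0.10 to 0.59). The network collagen VIII is a component of the membrane beneath the corneal endothelium, and Col8a1 was at 3.71, 2.96, 1.24, 1.77 and 4.27 CPM and at 3.28, 2.46, 2.59, 2.87 and 2.97 CPM (log2 fold change 0.03, 95% interval -0.60 to 0.66). The groups overlapped in both genes. Col8a2 was at 1.78 ± 0.890 and 1.10 ± 0.336 CPM (log2 fold change -0.69, 95% interval -1.46 to 0.07, edgeR adjusted p = 0.221), the lowest log2 fold change among members that did not pass. Col26a1, grouped with no other class, was at 4.88, 4.67, 3.94, 3.47 and 3.76 CPM and at 3.95, 4.74, 4.31, 4.31 and 5.34 CPM (log2 fold change 0.13, 95% interval -0.24 to 0.51).

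No laminin chain passed the test among the 10 tested, and their intervals were among the narrowest for the abundant chains. The alpha chains bind the cell receptors. Lama5, an alpha chain of mature basement membranes, was at 31.6, 30.5, 28.8, 33.4 and 32.3 CPM with AAV2-GFP and at 40.7, 36.4, 35.9, 33.3 and 30.4 CPM with AAV206-GFP (log2 fold change 0.17, 95% interval -0.0043 to 0.35, edgeR adjusted p = 0.189). Lama1, the alpha chain known from the inner limiting membrane, was at 12.6, 12.7, 11.5, 11.1 and 14.1 CPM and at 11.1, 12.4, 14.1, 13.0 and 14.6 CPM (log2 fold change 0.07, 95% interval -0.17 to 0.32). Both overlapped between the groups. Lama2, Lama3 and Lama4, the last a chain of vessel basement membranes, had log2 fold changes of -0.18, -0.11 and -0.09. Endothelial markers summed to 300.5 to 332 CPM with AAV2-GFP and to 297 to 332 CPM with AAV206-GFP, and within these sums Kdr (154 and 127 CPM, log2 fold change -0.28) and Flt1 (90.7 and 130 CPM, 0.51) passed in opposite directions. Of the 10 markers 8 were below 0, with a median log2 fold change of -0.42, and Cldn5 was also lower (-0.64, edgeR adjusted p = 0.0192). Muller glia markers summed to 3495 to 4359 and to 3176 to 3847 CPM. None of these 9 passed, and 8 were below 0 (median log2 fold change -0.19). Astrocyte markers summed to 47.3 to 103 and to 34.5 to 99.4 CPM, and none of 5 tested passed. Retinal pigment epithelium markers summed to 17.4 to 49.2 and to 20.2 to 28.5 CPM, and 1 of 8 tested was called lower. Of these 8, 6 were below 0 (median log2 fold change -0.40). The part of these cells in the laminin values was not tested.

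Among the beta and gamma chains, which complete the trimer, Lamb2 was at 23.4, 21.4, 23.9, 19.9 and 23.0 CPM and at 21.8, 20.4, 22.3, 18.5 and 24.7 CPM (log2 fold change -0.05, 95% interval -0.25 to 0.15). Lamb1 was at 18.4, 19.8, 20.96, 17.9 and 20.8 CPM and at 16.4, 20.3, 17.9, 18.1 and 18.4 CPM (log2 fold change -0.10, 95% interval -0.30 to 0.09). For both chains the retinas of the groups were mixed, and the intervals stayed within 1.5-fold in either direction. Lamc1, the gamma chain shared by most laminins, was at 42.9, 34.9, 25.7, 33.2 and 28.5 CPM with AAV2-GFP and at 36.9, 42.0, 35.3, 38.8 and 40.1 CPM with AAV206-GFP. AAV2-GFP mouse 1 was the highest of all 10 retinas and the other 4 AAV2-GFP mice were below every AAV206-GFP mouse. The log2 fold change was 0.23 (95% interval -0.01 to 0.47, edgeR adjusted p = 0.201), and without AAV2-GFP mouse 1 it was 0.34 (edgeR adjusted p = 0.0322). Lamc3, a gamma chain of the retina and its matrix, was at 3.44, 5.75, 4.41, 4.19 and 5.64 CPM and at 6.90, 6.20, 5.26, 6.01 and 4.32 CPM (log2 fold change 0.29, 95% interval -0.11 to 0.70). The epithelial chain gene Lamb3 had a log2 fold change of 0.57 (95% interval -0.14 to 1.29). Outside the laminins, Col6a5 (0.590 ± 0.297 and 0.475 ± 0.344 CPM) had too few counts to be tested.

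The 39 members that did not pass had log2 fold changes from -0.69 to 0.82 and edgeR adjusted p from 0.0668 to 0.977. For 17 of them the 95% interval stayed within 1.5-fold in either direction, for 35 it stayed within 2-fold, and for 4 it reached beyond. In simulated counts at this depth and replicate number edgeR recovered 54.1% of 1.5-fold and 79.2% of 2-fold changes. The changed genes were drawn at random from all tested genes, without a shift shared by genes of 1 mouse. These shares are therefore not the recovery for the members, of which 20 with at least 0.5 CPM were under 5 CPM. Of the 42 tested members, 29 had a log2 fold change above 0 (69.0%, against 48.2% of all tested genes), with a median of 0.12. Without AAV206-GFP mouse 1, 22 were above 0 (52.4%) and the median was 0.0097, beside 47.7% of all tested genes above 0 in that fit.

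**Figure D3:**
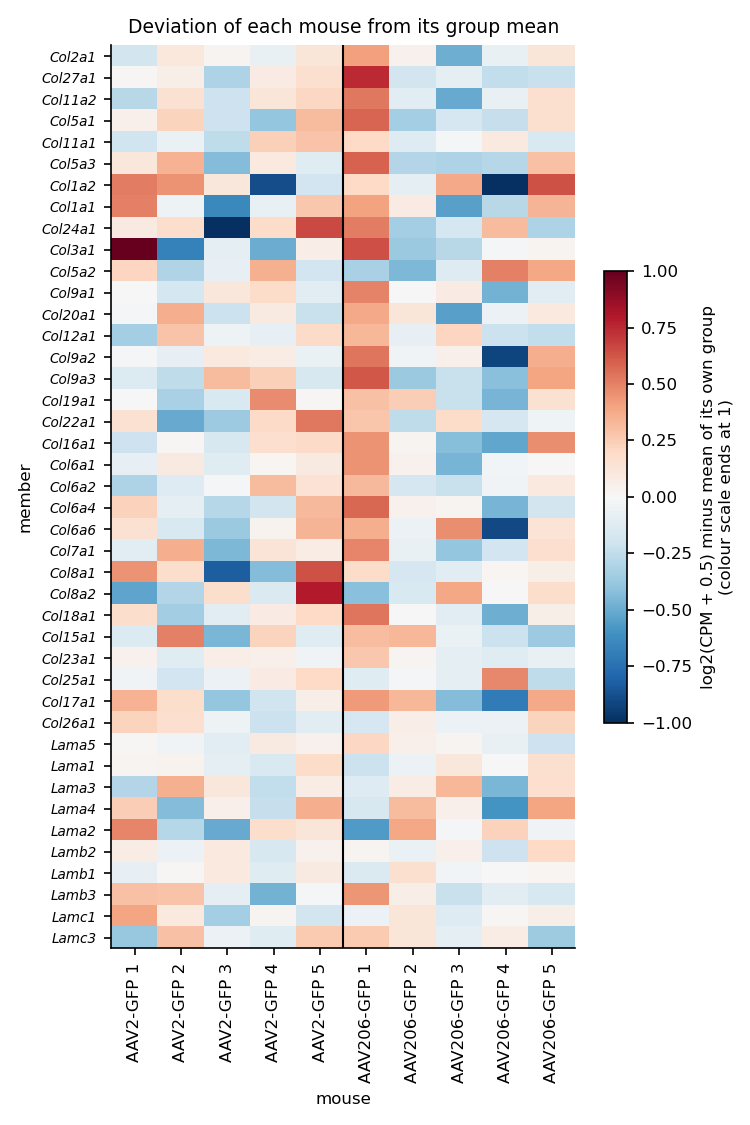
Colour gives log2(CPM + 0.5) of each of the 42 tested members (rows) in each mouse (columns) minus the mean of that mouse's own group, with the colour scale ending at 1 in either direction. The column of AAV206-GFP mouse 1 is red in most collagen rows, with a median ratio over the members of 1.31 to the other AAV206-GFP mice.

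To set the chains beside each other, CPM was divided by the length of the longest coding transcript in kilobases (kb). Over all 10 retinas Col6a1 (14.2 CPM per kb), Col2a1 (12.8 CPM per kb), Col23a1 (12.3 CPM per kb) and Col9a1 (9.12 CPM per kb) came first among the collagens. With the length of all exons together Col2a1 came after Col23a1, so the order of these genes depends on which length is used. Among the laminins the order per transcript length was Lamc1 (4.70 CPM per kb), Lamb2 (3.89 CPM per kb), Lamb1 (3.27 CPM per kb), Lama5 (2.93 CPM per kb) and Lama1 (1.33 CPM per kb). With all exons together Lamb1 was at 1.91 CPM per kb and came after Lama5 (2.93 CPM per kb). Col9a1 was at 7.29 ± 0.776 CPM per kb with AAV2-GFP and at 10.9 ± 2.704 with AAV206-GFP, above Col9a2 (2.701 CPM per kb over all retinas) and Col9a3 (2.13 CPM per kb). Col19a1 was at 0.650 ± 0.167 CPM per kb with AAV2-GFP and at 1.86 ± 0.424 with AAV206-GFP. Col3a1 was at 0.280 CPM per kb over all retinas, below Col1a2 (0.832 CPM per kb) and Col1a1 (0.563 CPM per kb).

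**Figure D4:**
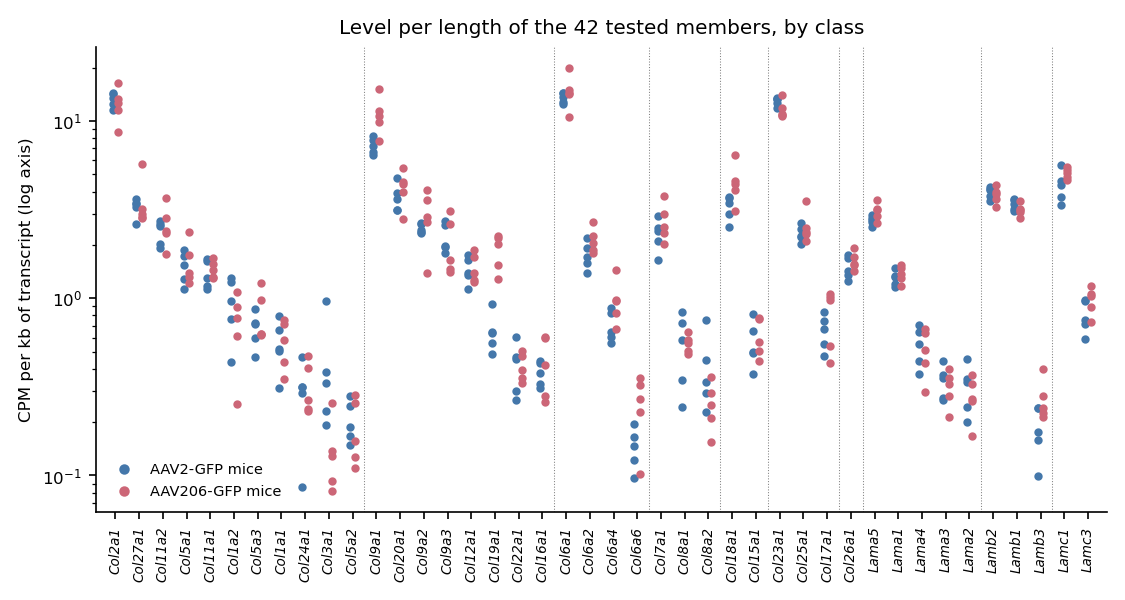
CPM per kilobase of the longest coding transcript (log axis) of the 42 tested members in the 10 retinas, by class; each point is 1 mouse, blue for AAV2-GFP and red for AAV206-GFP. Col6a1, Col2a1, Col23a1 and Col9a1 stand highest among the collagens and Lamc1 among the laminins.

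The enzymes, partners and receptors of collagens and laminins were examined as 5 lists with 119 genes, of which 100 were tested. Of these 15 passed (15%, against 11.2% of all tested genes), 4 higher and 11 lower with AAV206-GFP, with a median log2 fold change of -0.07. Among 26 tested genes of collagen processing and crosslinking, none was higher and 4 were lower (15.4% called). Plod1, a lysyl hydroxylase that prepares collagen for crosslinking, was at 22.8, 23.6, 22.8, 22.5 and 24.6 CPM with AAV2-GFP and at 15.8, 15.9, 15.9, 15.0 and 15.3 CPM with AAV206-GFP, without overlap (log2 fold change -0.58, SE 0.08, edgeR adjusted p = 0.000318). The lysyl hydroxylase Plod2 (log2 fold change -0.33, edgeR adjusted p = 0.0344), the prolyl hydroxylase P4ha1 (-0.33, 0.0397) and the collagen chaperone Serpinh1 (-0.46, 0.0336) were also lower. Leaving out AAV2-GFP mouse 3, 4 or 5 or AAV206-GFP mouse 2, 3 or 4, and for Serpinh1 and P4ha1 also AAV206-GFP mouse 1, raised the edgeR adjusted p to between 0.0537 and 0.102. P4hb, the shared subunit of prolyl hydroxylase and the highest of the list in CPM, had a log2 fold change of -0.16 (edgeR adjusted p = 0.107).

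Among 19 tested interstitial matrix partners, 3 were higher and 1 was lower (21.1% called, against 11.2% of all tested genes). Optc, which encodes opticin, a small proteoglycan bound to vitreous collagen fibrils and made by the ciliary epithelium, was at 2.08, 1.35, 1.24, 1.13 and 0.940 CPM with AAV2-GFP and at 8.83, 6.93, 5.69, 4.13 and 2.97 CPM with AAV206-GFP. The groups did not overlap (log2 fold change 2.08, SE 0.31, edgeR adjusted p = 0.000555). The microfibril genes Fbn1 (14.6 ± 1.46 and 26.0 ± 6.24 CPM, log2 fold change 0.84, edgeR adjusted p = 0.00156) and Fbn2 (2.04 ± 0.556 and 4.89 ± 1.11 CPM, log2 fold change 1.26, edgeR adjusted p = 0.00344) were higher without overlap. Prelp, a leucine-rich proteoglycan that links basement membranes to fibrils, was lower (log2 fold change -0.44, edgeR adjusted p = 0.00788), and fibronectin, Fn1, the highest of the list in CPM, had a log2 fold change of 0.16 (edgeR adjusted p = 0.313) that passed without AAV2-GFP mouse 1 (0.27, 0.0267). Of the 17 basement membrane partners 1 passed (5.88%). This was Fbln1, encoding fibulin 1, at 2.53 ± 2.34 and 10.8 ± 6.40 CPM (log2 fold change 2.11, SE 0.49, edgeR adjusted p = 0.0120). Its groups overlapped, since AAV2-GFP mouse 1 was at 6.42 CPM and AAV206-GFP mouse 4 at 4.58 CPM, and without AAV2-GFP mouse 1 the log2 fold change was 2.79. Egflam, encoding pikachurin and the highest of that list in CPM, had a log2 fold change of -0.13 (edgeR adjusted p = 0.267).

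A list of 9 ciliary epithelium and retinal margin genes was written after the value of Optc was seen. Of its 5 tested genes Optc was the 1 that passed, and the median log2 fold change was 0.25. The list summed to 22.2 to 29.7 CPM with AAV2-GFP and to 26.4 to 38.0 CPM with AAV206-GFP, highest in mouse 1. These sums and the median include Optc itself, at 0.940 to 2.08 and at 2.97 to 8.83 CPM. They are therefore no separate measure of such tissue. None of the listed genes was at 0 in all libraries. An earlier list of 6 ciliary body and cornea epithelium genes summed to 0.0773 to 1.45 and to 0.730 to 2.46 CPM, with Krt14 and Wfdc18 at 0 in all libraries. Lens markers summed to 17.2 to 36.7 and to 2.15 to 19.3 CPM, also highest among AAV206-GFP mice in mouse 1, with 2 of 4 tested genes lower and Lim2 at 0. Erythrocyte genes were the list with the largest share of calls, since 4 of 5 tested were higher (median log2 fold change 1.28) and the list summed to 67.8 to 85.8 CPM with AAV2-GFP and to 101 to 320 CPM with AAV206-GFP, without overlap. The part of such tissue and of blood in the values of Col9a1, Col19a1 and their partners was not tested.

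Of 19 tested collagen and laminin receptors, 2 were lower and none was higher (10.5% called, against 11.2% of all tested genes). These were Itga6, the laminin-binding integrin alpha 6 chain (10.6 ± 1.97 and 6.82 ± 0.602 CPM, log2 fold change -0.63, edgeR adjusted p = 0.0132), and Ddr1, a collagen-binding receptor kinase (132 ± 9.75 and 109 ± 12.6 CPM, log2 fold change -0.28, edgeR adjusted p = 0.0363). The Ddr1 call was lost without AAV2-GFP mouse 3, 4 or 5 or AAV206-GFP mouse 2 or 4 (edgeR adjusted p 0.0623 to 0.0868). The highest of the list in CPM, Dmd, a link of the laminin receptor dystroglycan to the cytoskeleton, had a log2 fold change of 0.25 (edgeR adjusted p = 0.0535), and it passed without AAV2-GFP mouse 1 or 2 or AAV206-GFP mouse 1 (edgeR adjusted p 0.0315 to 0.0426) and under 6 of the other settings. Of 19 tested proteases and inhibitors, 4 were lower and none was higher (21.1% called, against the same 11.2%). These were the membrane-type metalloproteinases Mmp15 (log2 fold change -0.48, edgeR adjusted p = 0.00292) and Mmp17 (-0.55, 0.00358), the aggrecanase Adamts1 (-0.41, 0.00993) and the collagen-cleaving cathepsin Ctsk (-1.52, 0.0327). Ctsk did not pass without AAV2-GFP mouse 2 or 4 or AAV206-GFP mouse 2, 3 or 4 (edgeR adjusted p 0.0595 to 0.0850). Timp2, the highest of the list in CPM, had a log2 fold change of -0.05 (edgeR adjusted p = 0.640).

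**Figure D5:**
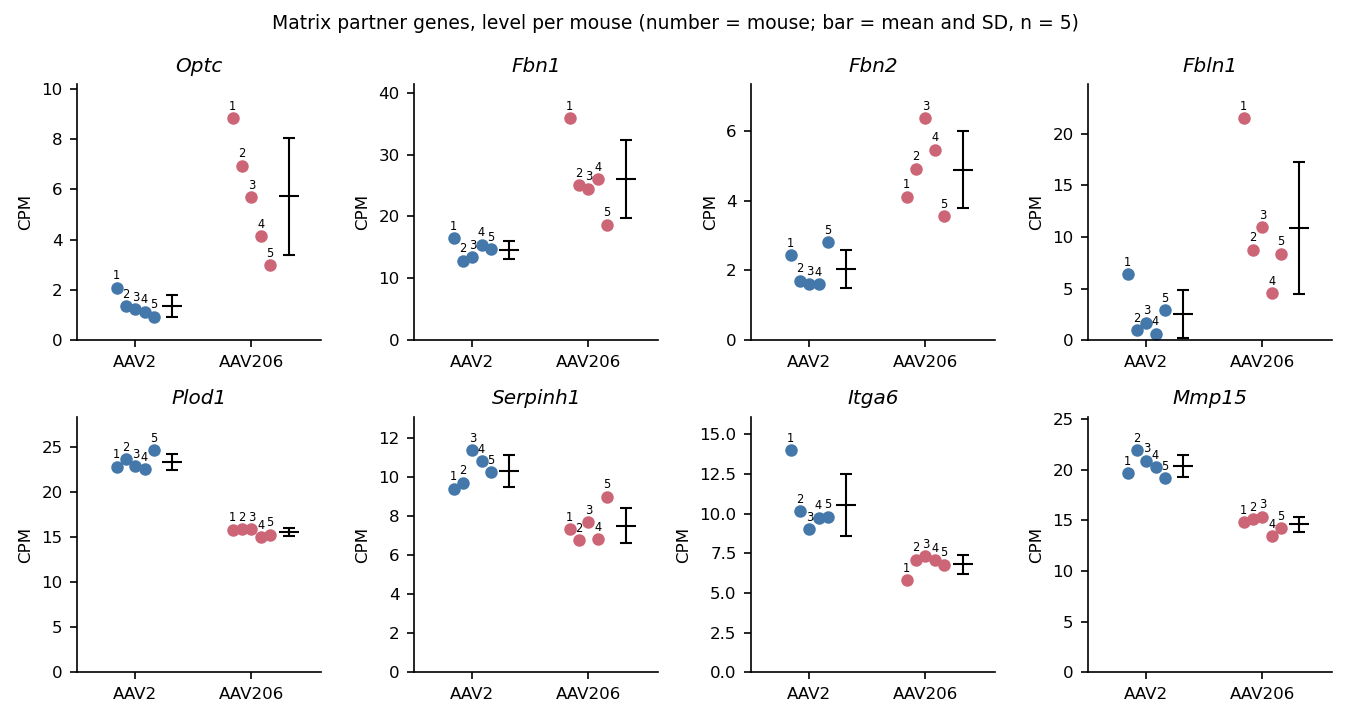
CPM (y axis) of 8 called partner genes in each of the 5 AAV2-GFP (AAV2) and 5 AAV206-GFP (AAV206) retinas, with mouse numbers and the mean and SD of each group. Optc, Fbn1 and Fbn2 are higher and Plod1, Serpinh1, Itga6 and Mmp15 lower with AAV206-GFP without overlap, and Fbln1 overlaps through AAV2-GFP mouse 1 at 6.42 CPM.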

How the data were processed

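The 10 whole-retina RNA libraries were grouped by their titles into 5 AAV2-GFP and 5 AAV206-GFP libraries. Trizol extraction, paired reads of 150 bases and a library kit of the NEBNext Ultra series are given per the labels' protocols. The deposited table held estimated counts per gene, unscaled, and the submitters' processing notes name STAR 2.7.10b, RSEM 1.3.1 and the build mm10. RSEM divides reads between genes that share sequence, and 5.95% of the values carried decimals, among the members those of Lamc3 and Lama2. Strand-specific counting is not stated in the sources used here, so reads of a gene and of an antisense gene cannot be told apart. The exons of 9 members overlap a gene on the opposite strand. Those opposite-strand genes had mean levels of 0 to 0.0763 CPM in the same table.

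Counts were rounded, filtered by filterByExpr (minimum count 10), scaled by TMM and tested without covariates with edgeR 4.0.16 in R 4.3.3 over all 10 libraries (quasi-likelihood F test, Benjamini-Hochberg adjustment over 15539 genes, threshold 0.05). CPM uses the TMM-adjusted library size, and 95% intervals come from the same fit. Symbols, coordinates and lengths came from GENCODE M21, and promoters from RefSeq (GRCm38.p6), where the last 50 bases before a start were left out because they reach annotated exons. The floor of 3 counts covers counting error only. The p-values set the difference between the groups against the spread between the mice within them. Values in every library were given for members past the threshold and for the 2 members of highest mean CPM in each class, and of each partner list up to 5 called genes and the one of highest mean CPM were named.

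The members and lists were chosen with earlier results of these data known. The values of 1 member are not reported here, although the counts of members include it. The mice are numbered 1 to 5 in both groups, but nothing in the labels pairs them, and deviations of same-numbered mice correlated between -0.0420 and 0.0325 across genes. No libraries of a group were duplicates (chi-square per degree of freedom at least 3.69). The fit was tested on simulated counts of 15539 genes, where 136 calls included 7 false ones (5.15%). Alternatives covered scaling, filters, rounding, DESeq2 1.42.0, limma-voom (limma 3.58.1), a replicate block and left-out libraries.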

Additional observations from a re-analysis of the deposited data

Results flagged for a closer look

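In 4 of the 88 group results examined (44 members in each of 2 groups of 5 mice), 1 retina stood far from the other 4, where chance flags about 1 in 20, or 4.4. This was 4.55% of the members' group results, against 6% over all tested genes. Col27a1 was at 43.6 CPM in AAV206-GFP mouse 1, against 21.6 to 24.2 CPM in the other AAV206-GFP mice. Col3a1 was at 5.33 CPM in AAV2-GFP mouse 1, against 1.08 to 2.14 CPM. AAV206-GFP mouse 4 stood apart for Col25a1, at 23.8 CPM against 14.1 to 16.8 CPM, and for Col6a5, at 1.08 CPM against 0.254 to 0.421 CPM.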

How the results depend on the processing

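Col19a1 and Col9a1 passed the threshold under all 21 other settings and the 1 added after the data were seen (both mice numbered 1 left out), with log2 fold changes of 1.42 to 1.71 and 0.44 to 0.69. Col3a1 was lower with AAV206-GFP in every one of them but was also lost with AAV2-GFP mice 1 and 4 both left out (log2 fold change -1.12, edgeR adjusted p = 0.137). The number of called members was 3, and 2 to 4 when 1 library was left out or another setting was used. The replicate block called the same 3 members, but 1085 genes against 1747 over the whole table. AAV2-GFP mice 1 and 4 both left out gave 985 genes, and leaving out 1 library gave 991 (AAV2-GFP mouse 4) to 1912. Under the block Plod2 (0.0833), P4ha1 (0.0622), Serpinh1 (0.0688) and Lmbrd1 (0.0936) were lost (edgeR adjusted p). Without AAV2-GFP mice 1 and 4, Plod2 (0.117), P4ha1 (0.118), Serpinh1 (0.0749), Lmbrd1 (0.124), Ctsk (0.0993), Itga6 (0.0637), Ddr1 (0.0514) and Adamts1 (0.0514) were lost. Without a filter on low counts Plod2 (0.0509), Serpinh1 (0.0703) and Lmbrd1 (0.0840) were lost, with a filter at 0.5 CPM Lmbrd1 (0.0514), and without both mice numbered 1 P4ha1 (0.0699) and Ctsk (0.0535). The cause was not tested. A change of sign was counted as a reversal only for values that passed the threshold in either fit, a definition set after the values were seen; none reversed. Among members that did not pass, 7 signs changed without AAV206-GFP mouse 1 (those of Col27a1, Col12a1, Col11a2, Col5a1, Col1a1, Col8a1 and Col24a1, with values of -0.14 to -0.01), 12 without both mice numbered 1 and 6 with sample weights in limma-voom. For 22 of the 39 uncalled members the 95% interval reached beyond 1.5-fold, so a difference of that size lies within the error of those members.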
